A study of Mus musculus with 2 samples.

Results

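Prostaglandins and leukotrienes are short-lived lipid signals made from arachidonic acid, and 8 genes that make, sense or remove them were followed here through 4T1 mouse mammary tumours at single-cell resolution. The genes are Ptgs1 (ENSMUSG00000047250), Ptgs2 (ENSMUSG00000032487), Ptges (ENSMUSG00000050737), Ptger2 (ENSMUSG00000037759), Ptger4 (ENSMUSG00000039942), Hpgd (ENSMUSG00000031613), Alox5ap (ENSMUSG00000060063) and Alox5 (ENSMUSG00000025701). They were taken by symbol, each matched 1 row of the 55357 genes in both matrices, and none was lost. 4T1 is a triple-negative breast cancer line that grows in immunocompetent BALB/c mice. The AptCD4-LNT library came from tumour-bearing mice dosed with AptCD4-LNT by cell number, given as 5, 4 and then 3 × 1000000 cells at intervals of 3 days, with tissue taken at day 9. The Untreated library came from tumour-bearing mice that received PBS, and the labels do not give the day its tissue was taken. Both groups are BALB/c mice bearing the same line, and each library is a mixture of 3 tumours. The series title names mobilisation and activation of CD4+ T cells as the aim, so the comparison asks how cells of the treated tumours differed from those of the controls.

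There is 1 library per group, so no difference below was tested against variation between mice, and every interval is a 95% interval that covers counting error only. The AptCD4-LNT library held 8931 barcodes with a median of 8612 unique molecular identifiers (UMIs), and the Untreated library held 20040 barcodes with a median of 4640.5. The libraries share 42 barcodes. After filtering and doublet removal 8627 AptCD4-LNT and 18216 Untreated cells were kept. Their median mitochondrial share was 1.63% and 1.88%. Cells were grouped by marker genes into classes, each called "-like" because the names were rebuilt from markers. Comparison was limited to 8 classes with 50 cells or more per library, namely epithelial-like (3733 AptCD4-LNT and 9354 Untreated cells), neutrophil-like (2130 and 2976), macrophage-like (927 and 2878), fibroblast-like (847 and 731), monocyte-like (597 and 942), T/NK-like (140 and 577), endothelial-like (59 and 160) and pericyte-like (50 and 97). The labels call the cells tumour cells, and of the 10 epithelial markers 9 were detected in AptCD4-LNT and 10 in Untreated epithelial-like cells, Krt5 being at 0 in AptCD4-LNT. Different clusters filled some classes in the 2 libraries, and those are named beside the values they touch.

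Prostanoid synthesis begins when phospholipases free arachidonic acid from membranes. The cyclooxygenases, constitutive Ptgs1 (COX-1) and inducible Ptgs2 (COX-2), turn it into prostaglandin H2, from which the inducible microsomal synthase Ptges makes prostaglandin E2. Prostaglandin E2 acts on neighbouring cells through receptors that include Ptger2 (EP2) and Ptger4 (EP4), both of which raise cyclic AMP, and Hpgd breaks it down. In tumours it is known for restraining cytotoxic lymphocytes and dendritic cells and for supporting suppressive myeloid cells. In the other branch, Alox5 with its membrane partner Alox5ap (FLAP) turns arachidonic acid into leukotriene A4, the precursor of leukotriene B4, a neutrophil attractant, and of the cysteinyl leukotrienes.

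The promoters of the 2 cyclooxygenases and of Ptger4 are shown because Ptgs2 and Ptger4 had the widest differences towards higher values in AptCD4-LNT tumours and Ptgs1 is the constitutive counterpart of Ptgs2. Each line runs 5′ to 3′ along the gene's own strand over 300 bases around the annotated start, from RefSeq on GRCm38.p6, which is not the build of the counts (GRCm39). Ptgs2 lies at chr1:150099781-150100080 (plus strand), Ptgs1 at chr2:36230176-36230475 (plus strand) and Ptger4 at chr15:5244138-5244437 (minus strand). Capitals mark matches, on either strand, to the motifs searched: the C/EBP palindrome TTGCGCAA, the core of the cyclic AMP response element CGTCA, here the CRE core, the TATA motif TATAAA, the GC box motif GGGCGG and the E box motif CACGTG. AP-1 was searched as TGA, any base and TCA, and NF-kB as GGGA, any base and TTTCC.
Ptgs2: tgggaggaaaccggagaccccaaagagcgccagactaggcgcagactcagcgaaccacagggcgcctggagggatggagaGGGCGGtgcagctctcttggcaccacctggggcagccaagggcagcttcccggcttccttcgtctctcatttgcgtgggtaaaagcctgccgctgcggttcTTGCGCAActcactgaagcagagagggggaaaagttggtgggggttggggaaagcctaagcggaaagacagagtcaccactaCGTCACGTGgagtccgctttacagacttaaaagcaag
Ptgs1: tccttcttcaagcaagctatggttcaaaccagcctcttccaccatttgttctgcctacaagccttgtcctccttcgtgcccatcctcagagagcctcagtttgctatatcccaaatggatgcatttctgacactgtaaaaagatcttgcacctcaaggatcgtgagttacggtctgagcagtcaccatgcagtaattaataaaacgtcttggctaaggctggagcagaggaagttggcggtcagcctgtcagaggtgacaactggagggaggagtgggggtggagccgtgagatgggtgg
Ptger4: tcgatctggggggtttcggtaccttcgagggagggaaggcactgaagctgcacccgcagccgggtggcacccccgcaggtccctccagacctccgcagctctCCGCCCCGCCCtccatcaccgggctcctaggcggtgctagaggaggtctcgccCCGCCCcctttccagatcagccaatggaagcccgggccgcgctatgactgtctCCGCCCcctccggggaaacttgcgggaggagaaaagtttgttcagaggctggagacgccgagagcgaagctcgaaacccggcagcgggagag
The Ptgs2 window held a GC box, the full C/EBP palindrome and, near its end, a CRE core that overlaps an E box. Among 32851 RefSeq promoters of the same length the C/EBP letters occur in 0.183%, the GC box in 35.7%, the CRE core in 20.8% and the E box in 7.15%. The Ptgs1 window held none of the 7 motifs. The Ptger4 window held the GC box on the opposite strand, read here as CCGCCC, and none of the others. AP-1 letters occur in 7.81% of all promoters, NF-kB letters in 0.411% and TATA letters in 13.6%. These are letter matches only. Promoter entries matched 7 of the 8 genes.

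Within classes, Ptgs2 was the gene most often higher in AptCD4-LNT tumours, and Ptger4 in macrophage-like cells showed the widest difference in that direction. Levels are given as CPM, which scales a gene's summed UMIs in a class to a class total of 1000000, and a gene was compared in a class where it had at least 20 UMIs over both libraries. Of the 64 combinations of gene and class, 42 qualified and 22 had 0 to 19 UMIs. At a ratio of 1.5-fold or more, 13 of the 42 (31.0%) were higher in AptCD4-LNT, against a background of 15.6% of all gene and class combinations, and 9 (21.4%) were lower, against 10.2%. The other 20 lay within 1.5-fold, and the median log2 ratio of AptCD4-LNT over Untreated was 0.12.

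The myeloid classes held most of the higher values, but neutrophil-like and macrophage-like cells also had the largest shares of all genes higher. In monocyte-like cells 4 of 6 compared genes (Ptgs2, Ptger2, Ptger4, Alox5) were higher, against 16.5% of all genes, and 0 were lower, against 7.3%. Their median log2 ratio was 0.84 and that of all genes 0.11. In monocyte-like cells 10 of 10 macrophage markers summed to 8179 CPM in AptCD4-LNT and 10366 CPM in Untreated tumours. The 8 monocyte markers, all detected, summed to 4392 and 3767 CPM. The part of macrophages in the monocyte-like values was not tested. In neutrophil-like cells 3 of 7 (Ptgs2, Ptger2, Alox5) were higher, where 27.5% of all genes were, and Ptges was lower, where 7.91% were. In macrophage-like cells 2 of 7 (Ptger4, Alox5) were higher, where 20.2% of all genes were, and 3 (Ptgs1, Ptges, Ptger2) were lower, where 8.63% were. The median over the compared genes was 0.16 in neutrophil-like cells, where all genes had 0.23, and −0.12 in macrophage-like cells, where all genes had 0.21.

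Fewer differences appeared outside the myeloid cells. In epithelial-like cells 1 of 5 genes, Ptgs2, was higher (9.94% of all genes were) and 0 were lower (6.6%). In fibroblast-like cells Ptgs2 was higher (10.5% of all genes) and Ptger2 and Alox5ap were lower (15.9%), of 7 compared. In T/NK-like cells 2 of 5 (Ptgs2, Ptger4) were higher (18.3% of all genes) and Ptges was lower (11.9%). Pericyte-like cells had 0 of 3 higher (18.8% of all genes) and Alox5ap lower (14.3%), and endothelial-like cells had 0 of 2 higher (9.86%) and Ptgs1 lower (11.5%). Medians were −0.11 in epithelial-like, 0.07 in fibroblast-like, 0.56 in T/NK-like, −0.21 in pericyte-like and −0.71 in endothelial-like cells, beside 0.06, −0.06, 0.09, 0.07 and 0.00 for all genes. Over all kept cells 4 of 8 genes (Ptgs2, Ptger4, Hpgd, Alox5) were higher (14.9% of all genes) and 0 were lower (6.95%).

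**Figure D1:**
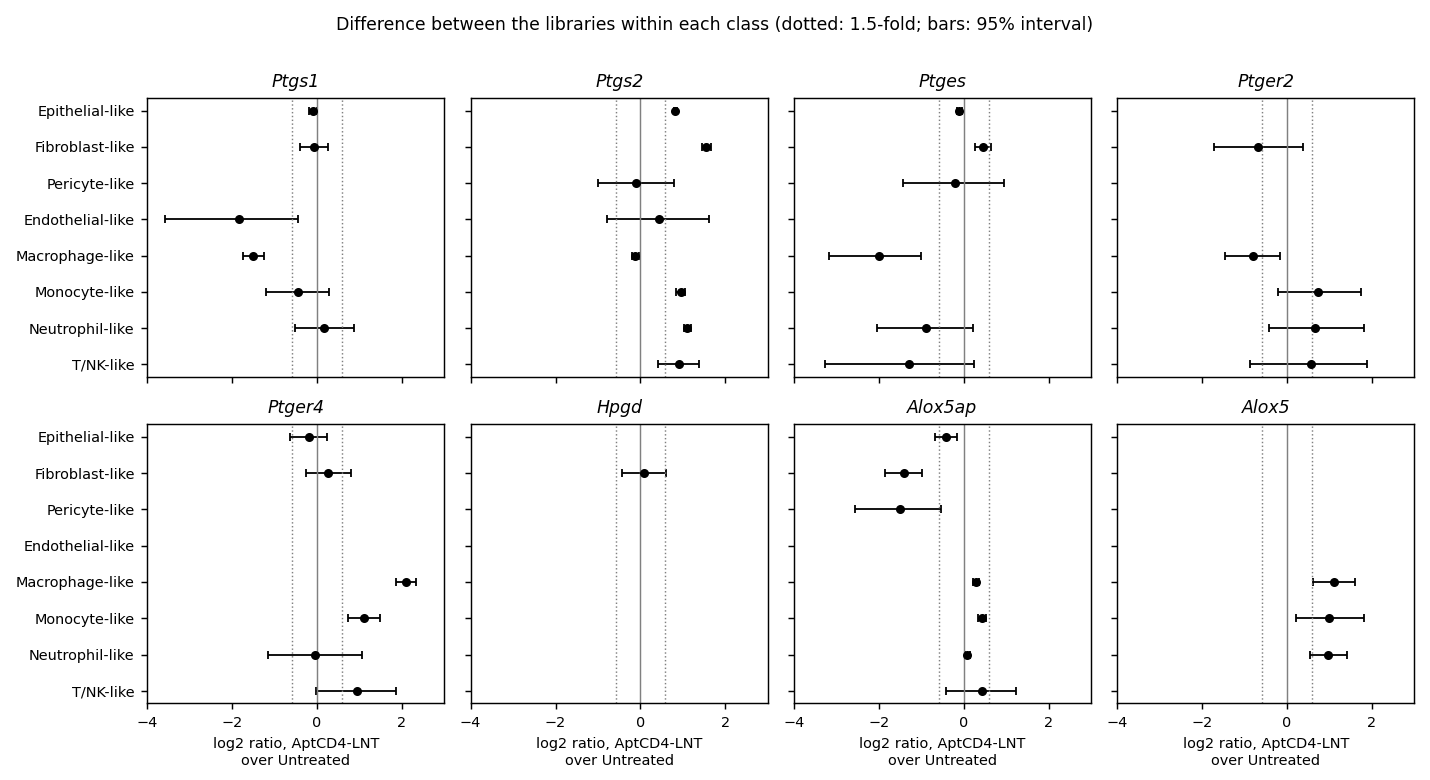
Log2 ratio of CPM, AptCD4-LNT over Untreated, for each gene (panels) in each class (rows), with its 95% interval from counting error; combinations under 20 UMIs are left blank and dotted lines mark 1.5-fold. Ptgs2 lies right of 0 in 6 classes, Ptgs1 in macrophage-like cells lies at −1.50 and Ptger4 in macrophage-like cells at 2.09.

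Ptgs2, the inducible cyclooxygenase, had its highest levels in neutrophil-like and monocyte-like cells of both libraries. Neutrophil-like cells had 1147 CPM (1110 to 1184) in AptCD4-LNT and 533 CPM (507 to 560) in Untreated tumours, 2.15-fold higher (log2 1.11, 1.02 to 1.19). Monocyte-like cells had 915 CPM in AptCD4-LNT and 473 CPM in Untreated tumours, 1.93-fold higher (log2 0.95, 0.84 to 1.06, and 0.50 at Leiden resolution 0.5). In fibroblast-like cells the level was 481 CPM in AptCD4-LNT and 164 CPM in Untreated tumours, and at 2.94-fold (2.73 to 3.16) this was the widest Ptgs2 difference among the 8 classes. Epithelial-like cells had 219 CPM in AptCD4-LNT and 124.5 CPM in Untreated tumours, 1.76-fold higher (1.72 to 1.81). Macrophage-like cells went the other way by a small margin, with 274.5 CPM in AptCD4-LNT and 298 CPM in Untreated tumours (log2 −0.12, −0.21 to −0.03). Fibroblast-like cells thus stood above macrophage-like cells in the AptCD4-LNT library and below them in the Untreated library. The lowest levels were those of pericyte-like cells, 48.9 CPM in AptCD4-LNT and 52.6 CPM in Untreated tumours, and of endothelial-like cells, 20.1 and 14.9 CPM, where intervals overlapped between libraries. In the Untreated library pericyte-like and T/NK-like cells did not differ beyond their intervals.

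**Figure D2:**
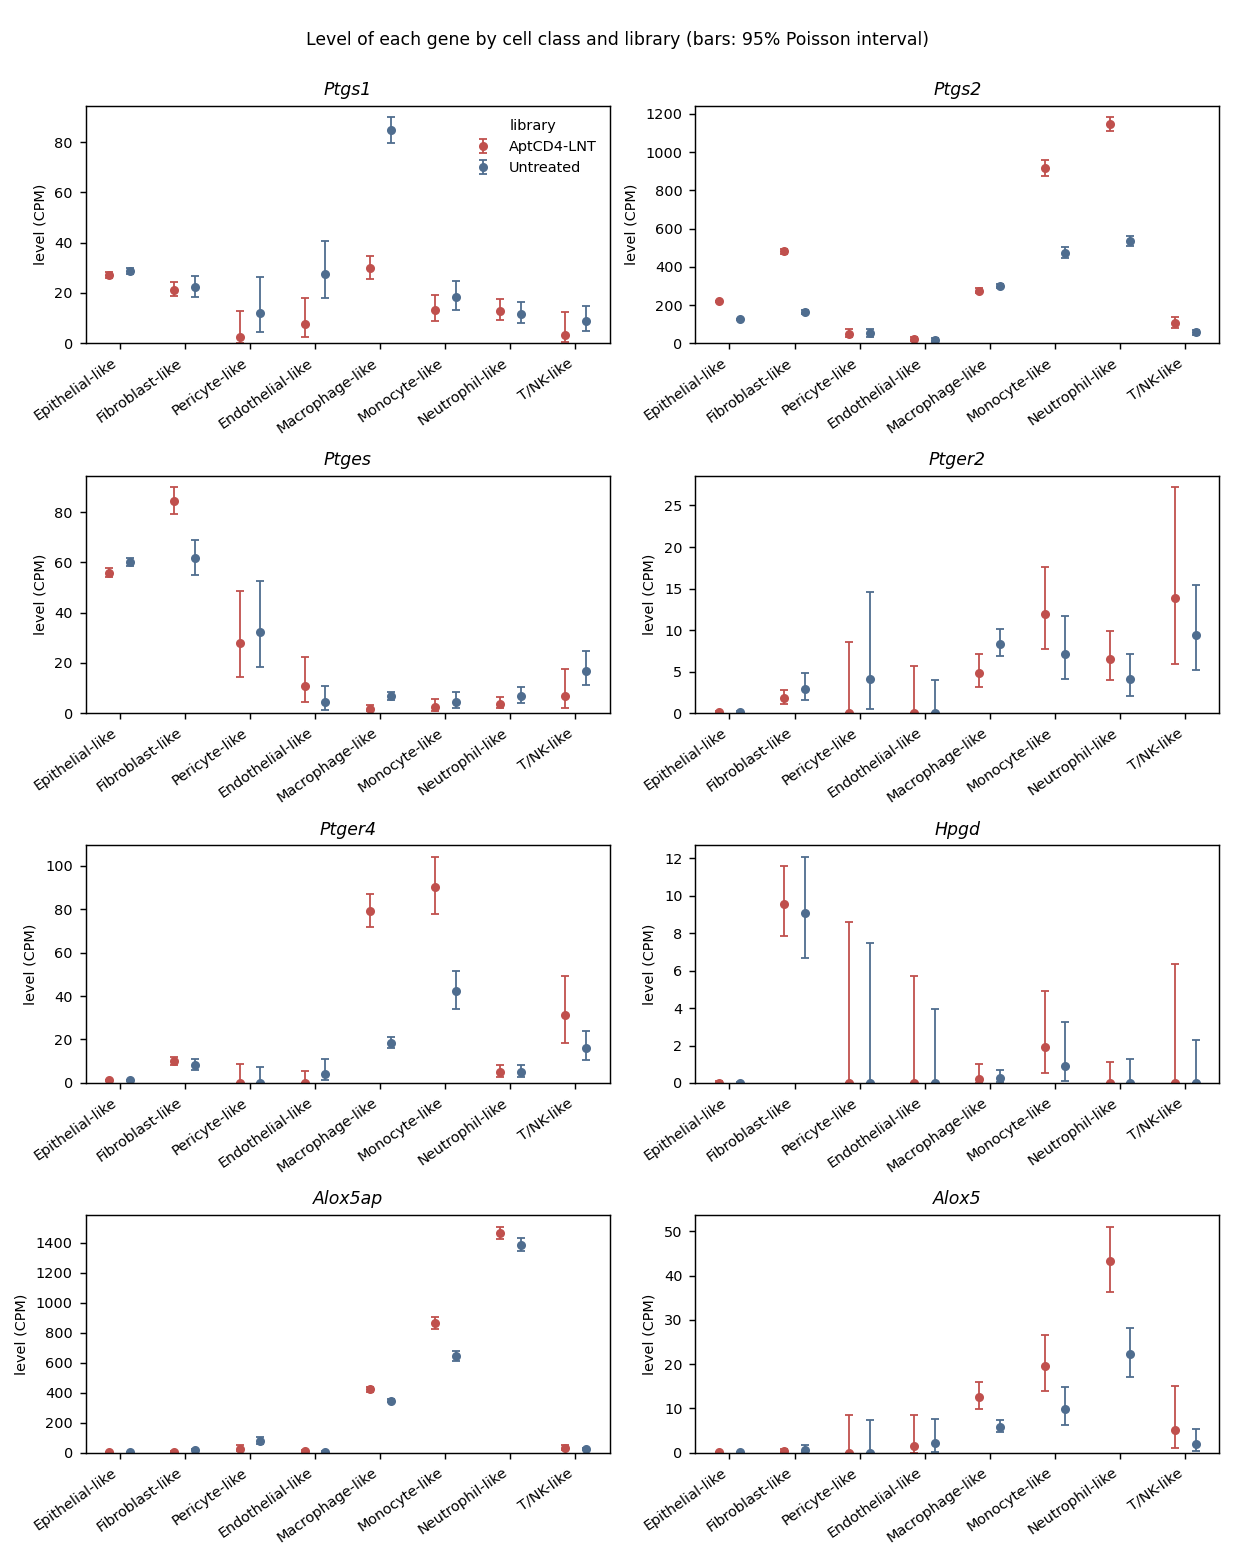
Level of each gene in CPM (vertical axis, linear from 0 and scaled per panel) by class, with AptCD4-LNT left of Untreated and 95% Poisson intervals. Ptgs2 is highest in neutrophil-like cells at 1147 and 533 CPM, Ptges in fibroblast-like and epithelial-like cells, Hpgd in fibroblast-like cells, and Alox5ap and Alox5 in neutrophil-like cells.

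The share of cells with a Ptgs2 UMI was larger in AptCD4-LNT tumours in neutrophil-like, monocyte-like, fibroblast-like and epithelial-like cells. With each cell thinned to 1000 UMIs, 51.8% (49.5 to 54.2) of AptCD4-LNT and 25.3% (22.6 to 28.2) of Untreated neutrophil-like cells had a Ptgs2 UMI, leaving out 384 and 2001 cells below that depth. Unthinned shares were 57.8% and 31.1% at median depths of 1351.5 and 809.5 UMIs. Fibroblast-like cells had thinned shares of 26.9% in AptCD4-LNT and 12.2% in Untreated tumours (63.0% and 33.8% unthinned, 22 and 69 cells left out). In monocyte-like cells the thinned shares were 43.5% and 30.03% (58.3% and 42.3% unthinned, 73 and 146 left out), and in epithelial-like cells 17.3% and 11.3% (71.3% and 46.2% unthinned, 17 and 116 left out). Macrophage-like cells had 18.5% in AptCD4-LNT and 22.8% in Untreated tumours (41.2% and 46.0% unthinned, 112 and 179 left out). Endothelial-like cells, the class with the lowest Ptgs2 level, had 3.64% and 3.38% (11.9% and 6.88% unthinned) at median depths of 8580 and 4219 UMIs.

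The clusters inside the classes did not all follow their class. Values are given for clusters with at least 50 cells per library, except that the Ifit3 cluster (31 AptCD4-LNT cells) and the Bglap cluster of macrophage-like cells (43 AptCD4-LNT cells) fell short of it. Both fibroblast-like clusters were higher in AptCD4-LNT tumours. The cluster led by Ptx3 and Sfrp2 had 441 CPM in AptCD4-LNT and 171 CPM in Untreated tumours, and that led by Tagln and Grem1 had 579 and 159 CPM. The Ptx3 cluster made up 75.4% of AptCD4-LNT and 34.1% of Untreated fibroblast-like cells. Among the 7 epithelial-like clusters, those led by Cenpf (149 CPM in AptCD4-LNT and 82.3 in Untreated), Cxcl11 (183 and 91.2) and Ibsp (296 and 151) were past 1.5-fold. The Cxcl5 cluster had 254 CPM in AptCD4-LNT and 179 CPM in Untreated tumours (log2 0.51). The Ramp1 cluster (111 and 119 CPM), the Krt17 cluster (169 and 171) and the Ifit3 cluster (173 and 187) had intervals that include 0. The Ibsp cluster made up 38.0% of AptCD4-LNT and 18.0% of Untreated epithelial-like cells. With the epithelial-like clusters at their Untreated shares, a setting chosen after seeing the data, the class log2 ratio was 0.56, just under 1.5-fold.

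In macrophage-like cells the class value hid differences of both signs. The cluster led by Ms4a7 and Cd72, which held 50.3% of AptCD4-LNT and 3.02% of Untreated macrophage-like cells, had 245 CPM of Ptgs2 in AptCD4-LNT and 314 CPM in Untreated tumours (log2 −0.35). The Mmp12 and Ccl24 cluster (6.58% and 37.2% of cells) had 772 CPM in AptCD4-LNT and 530 CPM in Untreated tumours. The Bglap cluster (4.64% and 53.2%) had 245 and 215 CPM, with an interval that includes 0. The cluster led by Ccl8 and Cd163 (38.5% and 6.60%), genes of resident-type macrophages, had 321 CPM in AptCD4-LNT and 126 CPM in Untreated tumours (log2 1.35, 0.96 to 1.76). At Untreated cluster shares the class ratio was 0.38 in place of −0.12. For every gene this setting weights macrophage-like clusters by their Untreated UMIs, 66.1% in the Bglap and 26.7% in the Mmp12 cluster. These 2 clusters held 43 and 61 AptCD4-LNT cells, and the values have no interval. Neutrophil-like cells were higher in both of their clusters, at 1209 CPM in AptCD4-LNT and 529 CPM in Untreated tumours in the Ngp and S100a8 cluster and at 834 and 534 CPM in the Hcar2 and Ccl3 cluster.

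**Figure D3:**
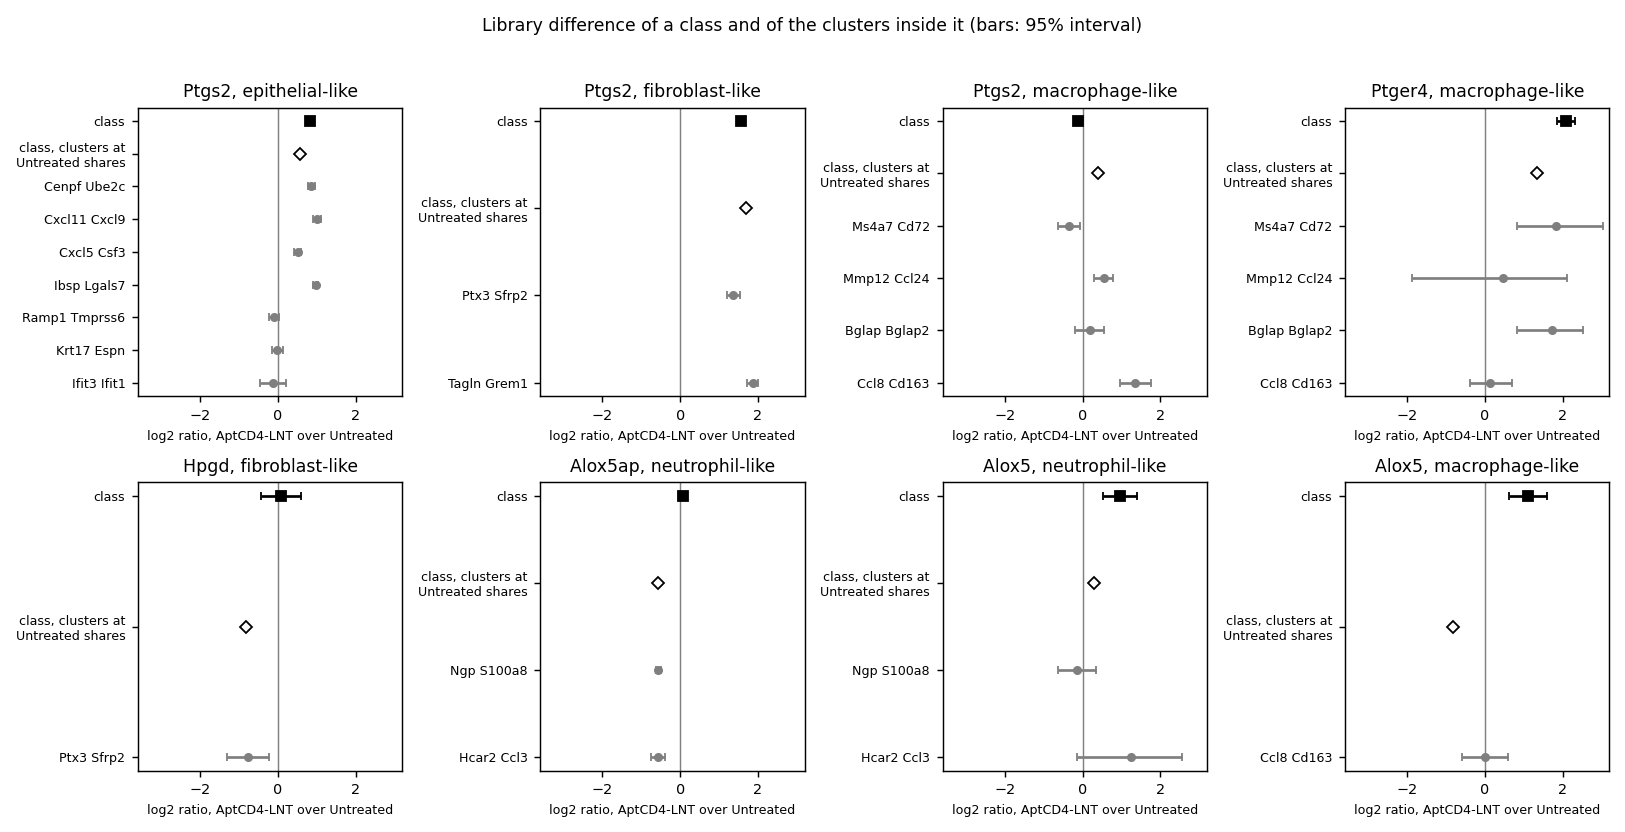
Log2 ratio of AptCD4-LNT over Untreated for a class (black square), for the class with its clusters at Untreated shares (open diamond) and for each cluster with at least 20 UMIs (grey, named by leading genes), with 95% intervals where counts give them. Ptgs2 in fibroblast-like cells lies at 1.36 and 1.86 in the clusters, while Alox5 in macrophage-like cells lies at 1.11 for the class and at 0.00 in the Ccl8 and Cd163 cluster.

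T/NK-like cells had 105 CPM of Ptgs2 in AptCD4-LNT and 56.2 CPM in Untreated tumours (log2 0.91, 0.41 to 1.39), on 61 and 90 UMIs. Of these, 35 of 61 AptCD4-LNT UMIs came from 3 cells of a sub-cluster led by Ccl5 and Gimap3, and 42 of 90 Untreated UMIs from its 52 cells; this sub-cluster was picked after its values were seen. With each cell weighted equally the log2 ratio was 0.12, and without doublet removal it was 0.11. In the same class neutrophil markers, of which 9 of 10 were detected in AptCD4-LNT (Ly6g at 0) and 10 in Untreated cells, summed to 278 and 1140 CPM. Monocyte markers summed to 1343 CPM in AptCD4-LNT (7 of 8 detected, Chil3 at 0) and 1253 CPM in Untreated cells (8 of 8). Their part in the result was not tested.

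Because Ptgs2 is an early response gene, 14 immediate early and stress genes were set beside it. More of them were higher than lower in AptCD4-LNT in every class but endothelial-like cells. The count was 10 of 14 in epithelial-like cells (median log2 0.65), 10 in macrophage-like cells (0.84), 10 in T/NK-like cells (1.09), 8 in neutrophil-like cells (0.68), 5 in monocyte-like cells (0.36), 5 in pericyte-like cells (0.40) and 4 in fibroblast-like cells (0.51). Lower were 2 in T/NK-like cells (Hspa1a, Hspa1b) and 3 in neutrophil-like cells (Atf3, Hspa1a, Hspa1b). Endothelial-like cells had 0 past 1.5-fold in either direction (median 0.13). Of all genes, the share that was higher was 9.94% in epithelial-like, 20.2% in macrophage-like, 18.3% in T/NK-like, 27.5% in neutrophil-like, 16.5% in monocyte-like, 18.8% in pericyte-like, 10.5% in fibroblast-like and 9.86% in endothelial-like cells, and the share that was lower was 11.9% in T/NK-like and 7.91% in neutrophil-like cells. The median of all genes in these classes lay between −0.06 and 0.23. The classes did not rank alike on the 2 measures: macrophage-like cells had the list at 0.84 and Ptgs2 at −0.12, whereas fibroblast-like cells had it at 0.51 and Ptgs2 at 1.55. In the Ptx3 fibroblast-like cluster the list median was −0.08 and Ptgs2 stood at 1.36. In the Tagln cluster the list median was 0.71, with 8 of 14 higher, and Ptgs2 was higher too. Neutrophil-like clusters had list medians of 0.42 (Ngp) and 0.62 (Hcar2), with Ptgs2 higher in both. Epithelial-like cluster medians ranged between 0.27 (Ramp1), where the Ptgs2 interval includes 0, and 0.73 (Ibsp), where Ptgs2 was higher. In the Ms4a7 macrophage-like cluster the list median was −0.25, with 2 of 14 higher and 5 lower, and Ptgs2 stood at −0.35. The list medians of the other macrophage-like clusters were 0.23 (Mmp12), 0.94 (Bglap) and 0.35 (Ccl8 and Cd163). The part of tissue handling in the Ptgs2 difference was not tested.

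Genes induced with Ptgs2 by inflammatory signals were also set beside it, as a list of 14. Higher against lower counts were 8 and 3 of 14 in epithelial-like, 7 and 4 of 14 in fibroblast-like, 5 and 4 of 13 in macrophage-like, 6 and 1 of 14 in monocyte-like, 6 and 4 of 12 in neutrophil-like, 8 and 4 of 13 in T/NK-like, 2 and 3 of 11 in pericyte-like and 4 and 1 of 9 in endothelial-like cells. The list medians were 0.72, 0.67, 0.57, 0.53, 0.62, 0.97, 0.06 and 0.42 in the same order of classes, beside 0.06, −0.06, 0.21, 0.11, 0.23, 0.09, 0.07 and 0.00 for all genes. Of all genes 9.94%, 10.5%, 20.2%, 16.5%, 27.5%, 18.3%, 18.8% and 9.86% were higher in that order, and 6.6%, 15.9%, 8.63%, 7.3%, 7.91%, 11.9%, 14.3% and 11.5% were lower. Tnfaip3, an inhibitor of NF-kB signalling, was higher past 1.5-fold in all 8 classes, for example at 145 CPM in AptCD4-LNT and 46.4 CPM in Untreated fibroblast-like cells. Il1a, an alarm cytokine, was lower in epithelial-like, fibroblast-like, macrophage-like, monocyte-like, neutrophil-like, pericyte-like and T/NK-like cells.

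Ptgs1, the constitutive cyclooxygenase, was lower in macrophage-like cells of AptCD4-LNT tumours and, on few UMIs, in endothelial-like cells. The macrophage-like level was 29.9 CPM (25.4 to 34.9) in AptCD4-LNT and 84.7 CPM (79.7 to 90.0) in Untreated tumours, 2.83-fold lower (2.40 to 3.37). It was lower in the Ms4a7 cluster, at 32.2 and 82.0 CPM (log2 −1.35, −1.94 to −0.71), and in the Bglap cluster, at 27.2 and 112 CPM on 7 and 918 UMIs (log2 −2.03). In the Mmp12 cluster (16.5 and 27.4 CPM) and the Ccl8 cluster (22.0 and 29.6 CPM) the intervals include 0. At Untreated cluster shares the class ratio was −1.80. With cells thinned to 1000 UMIs, 2.45% of AptCD4-LNT and 6.74% of Untreated macrophage-like cells had a Ptgs1 UMI (12.6% and 23.3% unthinned), beside 1.26% and 0.923% of neutrophil-like cells. Ptgs1 is also known as a platelet gene, and 3 of 5 platelet markers in AptCD4-LNT (Gp9 and Gp1bb at 0) and 2 of 5 in Untreated macrophage-like cells (Itga2b, Gp9 and Gp1bb at 0) summed to 581 and 2135 CPM. The Untreated sum thus rests on Pf4 and Ppbp alone, and Pf4 is itself a leading gene of the Bglap cluster. The part of platelet RNA in the result was not tested.

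Ptgs1 lay within 1.5-fold at the class level in 4 other classes. Epithelial-like cells had 27.0 CPM in AptCD4-LNT and 28.8 CPM in Untreated tumours, fibroblast-like cells 21.3 and 22.4 CPM, monocyte-like cells 13.4 and 18.4 CPM, and neutrophil-like cells 12.98 and 11.6 CPM. The ratio at Untreated cluster shares was −0.67 in neutrophil-like cells and −0.60 in fibroblast-like cells, both past 1.5-fold. Inside the fibroblast-like class the Tagln cluster had 8.17 CPM in AptCD4-LNT and 19.0 CPM in Untreated tumours (log2 −1.22). Endothelial-like cells had 5 UMIs (7.72 CPM) in AptCD4-LNT and 26 UMIs (27.7 CPM) in Untreated tumours, with a wide interval (log2 −1.84, −3.58 to −0.44). Epithelial-like cells held 79.9% of all Ptgs1 UMIs in AptCD4-LNT tumours and 65.1% in Untreated tumours, and macrophage-like cells 6.7% and 28.0%.

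Ptges, the inducible prostaglandin E2 synthase, was a gene of epithelial-like and fibroblast-like cells in both libraries. Epithelial-like cells had 55.9 CPM in AptCD4-LNT and 60.2 CPM in Untreated tumours (log2 −0.11, −0.17 to −0.05), and the ratio was below 0 in all 7 epithelial-like clusters. Of these only the Ifit3 cluster was past 1.5-fold, with 49.2 CPM in AptCD4-LNT and 87.1 CPM in Untreated tumours. Fibroblast-like cells had 84.6 CPM in AptCD4-LNT and 61.7 CPM in Untreated tumours (log2 0.45, 0.27 to 0.64). That difference sat in the Ptx3 cluster, at 90.9 and 41.9 CPM (log2 1.12, 0.78 to 1.47), while the Tagln cluster had 68.8 CPM in AptCD4-LNT and 72.8 CPM in Untreated tumours. Pericyte-like cells had 27.9 and 32.4 CPM on 12 and 16 UMIs.

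In the immune classes Ptges was sparse. Macrophage-like cells had 9 UMIs (1.67 CPM) in AptCD4-LNT and 83 UMIs (6.67 CPM) in Untreated tumours, neutrophil-like cells 12 (3.71 CPM) and 20 UMIs (6.82 CPM), and T/NK-like cells 4 (6.91 CPM) and 27 UMIs (16.9 CPM). All 3 were lower past 1.5-fold, but the intervals of neutrophil-like and T/NK-like cells include 0, and the macrophage-like ratio was −0.25 with cells weighted equally. Epithelial markers in macrophage-like cells summed to 134 CPM in AptCD4-LNT and 252 CPM in Untreated tumours, in neutrophil-like cells to 336 and 345 CPM and in T/NK-like cells to 988 and 1205 CPM. Of the 10 markers 9 were detected in each case, Krt5 being at 0, except in AptCD4-LNT T/NK-like cells, where Cldn7 was at 0 too and 8 were detected. Fibroblast markers went the other way. They summed to 386 CPM in AptCD4-LNT and 114 CPM in Untreated macrophage-like, 666 and 294 CPM in neutrophil-like and 420 and 169 CPM in T/NK-like cells. All 9 were detected, except that Lum and Dpt were at 0 in Untreated T/NK-like cells. The part of either marker set in the result was not tested.

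Cells with both enzymes were counted because Ptges uses the product of Ptgs2. At 1000 UMIs per cell, 29 of 825 AptCD4-LNT fibroblast-like cells (3.52%) and 3 of 662 Untreated ones (0.453%) had a UMI of both. Among fibroblast-like cells with Ptgs2, Ptges was found in 13.1% of AptCD4-LNT and 3.70% of Untreated cells, and among those without Ptgs2 in 8.29% and 5.85%. In epithelial-like cells 36 of 3716 AptCD4-LNT (0.969%) and 82 of 9238 Untreated cells (0.888%) had both. There Ptges was found in 5.60% and 7.89% of cells with Ptgs2 and in 6.22% and 6.58% of cells without it. Double detection was therefore more frequent in the AptCD4-LNT library among fibroblast-like cells and nearly equal among epithelial-like cells. The Untreated fibroblast-like value rests on 3 cells. The Ptx3 cluster made up 75.4% of AptCD4-LNT and 34.1% of Untreated fibroblast-like cells, and its part in the result was not tested.

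**Figure D4:**
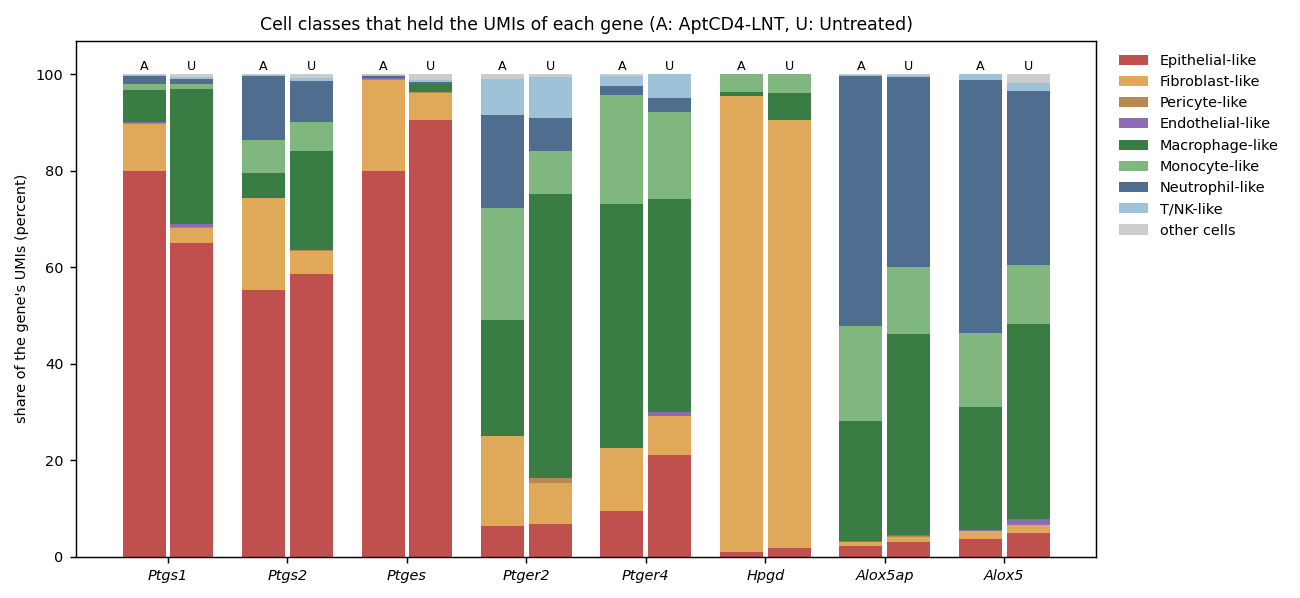
Share of each gene's UMIs, in percent of the gene's total over all kept cells, held by each class, with AptCD4-LNT (A) left of Untreated (U) for each gene. Epithelial-like cells hold 80.0% and 90.5% of Ptges UMIs, and fibroblast-like cells hold 18.9% of Ptgs2 UMIs in AptCD4-LNT and 4.69% in Untreated tumours.

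Class size and level together set where the enzymes' transcripts were. Epithelial-like cells held 55.3% of Ptgs2 UMIs in AptCD4-LNT and 58.7% in Untreated tumours. Fibroblast-like cells held 18.9% and 4.69%, while macrophage-like cells held 5.26% and 20.6%. Over all cells Ptgs2 was at 296 CPM in AptCD4-LNT and 161 CPM in Untreated tumours (1.84-fold), and with classes at their Untreated shares the AptCD4-LNT level was 269.8 CPM. Ptges was at 52.2 and 50.5 CPM over all cells.

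Ptger4, the EP4 receptor, was higher in AptCD4-LNT macrophage-like and monocyte-like cells. Macrophage-like cells had 79.1 CPM (71.7 to 87.0) in AptCD4-LNT and 18.6 CPM (16.2 to 21.1) in Untreated tumours, 4.26-fold higher (3.62 to 5.02). Monocyte-like cells had 90.2 CPM in AptCD4-LNT and 42.1 CPM in Untreated tumours, 2.14-fold higher (1.67 to 2.78). The receptor was detected in 7.24% of AptCD4-LNT and 2.04% of Untreated macrophage-like cells at 1000 UMIs (27.8% and 7.09% unthinned), beside 0.135% and 0.141% of epithelial-like cells. Monocyte-like shares were 8.40% and 3.39% (21.1% and 8.39% unthinned). T/NK-like cells had 31.1 CPM in AptCD4-LNT and 16.2 CPM in Untreated tumours on 18 and 26 UMIs, with an interval that just includes 0 (log2 0.94, −0.02 to 1.86).

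The macrophage-like clusters ranged between 16.5 and 97.7 CPM of Ptger4 in AptCD4-LNT and between 12.1 and 88.8 CPM in Untreated tumours. The Ms4a7 cluster had 79.7 CPM in AptCD4-LNT and 22.6 CPM in Untreated tumours (log2 1.82, 0.82 to 3.04), on 8 Untreated UMIs. The Bglap cluster had 54.5 and 16.4 CPM on 14 and 135 UMIs (log2 1.73, 0.82 to 2.53). The Ccl8 and Cd163 cluster was high in both libraries, at 97.7 CPM in AptCD4-LNT and 88.8 CPM in Untreated tumours (log2 0.14, −0.40 to 0.68). The Mmp12 cluster was low in both, at 16.5 and 12.1 CPM. At Untreated cluster shares the class would stand at 46.9 CPM in AptCD4-LNT (log2 1.34). Monocyte markers, all 8 detected in both libraries, summed to 799 CPM in AptCD4-LNT and 634 CPM in Untreated macrophage-like cells, and their part in the result was not tested. Fibroblast-like cells had 9.93 and 8.31 CPM and neutrophil-like cells 4.94 and 5.12 CPM of Ptger4, with intervals that include 0. Pericyte-like cells had 0 UMIs, which allows up to 6.98 CPM in AptCD4-LNT and 6.07 CPM in Untreated tumours. Endothelial-like cells had 0 in AptCD4-LNT tumours, which allows up to 4.63 CPM, and 4 (4.26 CPM) in Untreated tumours.

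Ptger2, the EP2 receptor, was sparse everywhere, with 108 UMIs in AptCD4-LNT and 177 in Untreated cells. Monocyte-like cells had 11.9 CPM in AptCD4-LNT and 7.16 CPM in Untreated tumours on 25 and 16 UMIs, and neutrophil-like cells 6.49 and 4.09 CPM on 21 and 12 UMIs. Both were higher past 1.5-fold with intervals that include 0, and the neutrophil-like ratio was 0.44 when centred on the median gene and −0.16 at Untreated cluster shares. Macrophage-like cells had 4.83 CPM in AptCD4-LNT and 8.36 CPM in Untreated tumours (log2 −0.79, −1.47 to −0.16), which turned to 0.34 at Untreated cluster shares. T/NK-like cells had 13.8 and 9.37 CPM on 8 and 15 UMIs, and fibroblast-like cells 1.80 and 2.90 CPM on 20 and 15 UMIs. Epithelial-like cells had the lowest level of the classes with a UMI in both libraries, on 7 and 12 UMIs. In AptCD4-LNT tumours the intervals of epithelial-like (0.0397 to 0.203 CPM), fibroblast-like (1.10 to 2.79), macrophage-like (3.15 to 7.07) and monocyte-like cells (7.73 to 17.6) did not overlap, and those of neutrophil-like and T/NK-like cells overlapped with the monocyte-like one.

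Hpgd, the enzyme that inactivates prostaglandin E2, was found almost wholly in fibroblast-like cells. They held 106 of 112 AptCD4-LNT UMIs and 47 of 53 Untreated UMIs. Their level was 9.56 CPM in AptCD4-LNT and 9.09 CPM in Untreated tumours (log2 0.07, −0.43 to 0.60). Nearly all of it lay in the Ptx3 cluster, with 104 and 42 UMIs, where it was lower at 13.2 CPM in AptCD4-LNT and 22.6 CPM in Untreated tumours (log2 −0.78, −1.31 to −0.22). The Tagln cluster had 2 and 5 UMIs. The level over all cells was 1.18 CPM in AptCD4-LNT and 0.473 CPM in Untreated tumours, 2.49-fold higher, and with classes at Untreated shares it was 0.510 CPM in AptCD4-LNT (log2 0.11). Fibroblast-like cells made up 9.82% of AptCD4-LNT and 4.01% of Untreated cells. Neutrophil-like cells had 0 Hpgd UMIs in both libraries, which allows a level of up to 0.927 CPM in AptCD4-LNT and 1.02 CPM in Untreated tumours.

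Alox5ap, the partner protein of 5-lipoxygenase, marked the myeloid classes. Neutrophil-like cells had 1467 CPM in AptCD4-LNT and 1389 CPM in Untreated tumours (log2 0.08, 0.02 to 0.14). Inside the class, both clusters were lower in AptCD4-LNT by nearly the same amount. The Ngp and S100a8 cluster had 1639 CPM in AptCD4-LNT and 2420 CPM in Untreated tumours (log2 −0.56, −0.64 to −0.49), and the Hcar2 and Ccl3 cluster had 606 and 896 CPM (log2 −0.57, −0.74 to −0.39). The Ngp cluster, which has the higher level, made up 78.7% of AptCD4-LNT and 27.1% of Untreated neutrophil-like cells. At Untreated cluster shares the AptCD4-LNT level was 939.5 CPM (log2 −0.56). At 1000 UMIs per cell 61.1% of AptCD4-LNT and 65.0% of Untreated neutrophil-like cells had an Alox5ap UMI (65.0% and 47.3% unthinned), beside 0.161% and 0.476% of epithelial-like cells.

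Monocyte-like cells had 867 CPM of Alox5ap in AptCD4-LNT and 643 CPM in Untreated tumours (log2 0.43, 0.33 to 0.53). Macrophage-like cells had 423 and 347 CPM (log2 0.28), with the Mmp12 cluster at 722 and 427 CPM and the Ccl8 cluster at 625 and 644 CPM. Both classes stayed within 1.5-fold. Outside the myeloid classes Alox5ap was scarcer. T/NK-like cells had 34.6 CPM in AptCD4-LNT and 25.6 CPM in Untreated tumours and epithelial-like cells 2.76 and 3.70 CPM, both within 1.5-fold. Fibroblast-like cells had 7.31 CPM in AptCD4-LNT and 19.5 CPM in Untreated tumours (log2 −1.42, −1.86 to −0.98; −0.51 with cells weighted equally), and pericyte-like cells 27.9 and 78.9 CPM on 12 and 39 UMIs (log2 −1.50). Macrophage and neutrophil markers moved with these values, and monocyte markers did not. In fibroblast-like cells, where all were detected in both libraries, 10 macrophage markers summed to 272 CPM in AptCD4-LNT and 743 CPM in Untreated tumours, 10 neutrophil markers to 505 and 835 CPM and 8 monocyte markers to 1254 and 1147 CPM. In pericyte-like cells 9 of 10 macrophage markers summed to 95.4 CPM in AptCD4-LNT (Trem2 at 0) and 433 CPM in Untreated tumours (Mrc1 at 0). There neutrophil markers summed to 1723 CPM in AptCD4-LNT (9 of 10 detected, Ly6g at 0) and 2627 CPM in Untreated tumours (10 of 10). Monocyte markers there went the other way, at 1299 CPM in AptCD4-LNT (8 of 8 detected) and 503.996 CPM in Untreated tumours. In the latter 7 of 8 were detected, Ms4a4c being at 0. The part of these marker sets in the result was not tested.

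Alox5, 5-lipoxygenase itself, was higher at the class level in 3 myeloid classes of AptCD4-LNT tumours. Neutrophil-like cells had 43.3 CPM in AptCD4-LNT and 22.2 CPM in Untreated tumours (log2 0.96, 0.53 to 1.41), monocyte-like cells 19.6 and 9.85 CPM (0.99, 0.21 to 1.81) and macrophage-like cells 12.6 and 5.87 CPM (1.11, 0.61 to 1.60). Inside the neutrophil-like and macrophage-like clusters the intervals of the ratio include 0. The Ngp cluster of neutrophil-like cells had 48.5 CPM in AptCD4-LNT and 53.9 CPM in Untreated tumours (log2 −0.15), and the Hcar2 cluster had 9 and 14 UMIs (16.7 and 7.06 CPM, log2 1.24, −0.14 to 2.55). At Untreated cluster shares the neutrophil-like ratio was 0.28. In macrophage-like cells the Ccl8 and Cd163 cluster held 62 of 68 AptCD4-LNT UMIs and 41 of 73 Untreated UMIs, at 75.7 CPM in AptCD4-LNT and 75.9 CPM in Untreated tumours. At Untreated cluster shares the macrophage-like ratio turned to −0.82. That value has no interval and rests mostly on the Bglap and Mmp12 clusters, with 43 and 61 AptCD4-LNT cells. The monocyte-like ratio was 0.25 with doublets removed at the expected rate. In monocyte-like cells 6 of 6 mast cell markers were detected in AptCD4-LNT and 2 of 6 in Untreated tumours (Mcpt4, Tpsb2, Tpsab1 and Cma1 at 0), and they summed to 94.5 and 15.2 CPM. The 5 basophil markers, all detected in both libraries, summed to 40.6 CPM in AptCD4-LNT and 11.6 CPM in Untreated monocyte-like cells. Their part in the result was not tested. Epithelial-like cells had 10 and 9 UMIs, at most 0.141 CPM in either library.

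Some sub-clusters inside the monocyte-like cluster, chosen here after their values were seen, stood out for these genes. A sub-cluster of 8 AptCD4-LNT and 6 Untreated cells, led by Il4, Mcpt1 and Mcpt2, had Alox5 at 294 CPM (127 to 579, 8 UMIs) and Alox5ap at 1983 CPM over both libraries. Mature dendritic-like cells (5 AptCD4-LNT and 29 Untreated cells, led by Ccr7 and Ccl22) had Ptger4 at 201 CPM (130 to 297). Dendritic-like cells led by Timd4 and Cd209a (44 and 24 cells) had Ptgs2 at 575 CPM in AptCD4-LNT and 225 CPM in Untreated tumours.

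The other genes of the pathway were read from a list of 49, of which 17 reached 50 CPM in a compared class. In fibroblast-like cells 4 of 29 compared list genes were higher and 6 lower (10.5% and 15.9% of all genes), with a median log2 ratio of −0.01 beside −0.06 for all genes. Ptgis, prostacyclin synthase, had 173 CPM in AptCD4-LNT and 31.7 CPM in Untreated fibroblast-like cells, 5.44-fold higher (log2 2.44, 2.21 to 2.68). It was higher in the Ptx3 cluster (209.5 and 54.8 CPM) and in the Tagln cluster (80.8 and 18.7 CPM). Ptgfr, the prostaglandin F receptor, had 14.98 CPM in AptCD4-LNT and 25.5 CPM in Untreated tumours (log2 −0.77). Pla2g7, which hydrolyses platelet-activating factor, had 50.7 and 113 CPM (−1.16), and Mgst3, a microsomal glutathione transferase, 22.8 and 42.7 CPM (−0.90). With the clusters at their Untreated shares Ptgis would stand at 127 CPM in AptCD4-LNT, and the log2 ratios were −1.46 for Ptgfr, −0.85 for Mgst3 and −0.14 for Pla2g7, which was then within 1.5-fold.

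In epithelial-like cells 2 of 30 list genes were higher and 5 lower (9.94% and 6.6% of all genes; median −0.10, all genes 0.06). Slco2a1, the transporter that takes prostaglandins into cells, had 256 CPM in AptCD4-LNT and 153 CPM in Untreated tumours (log2 0.75, 0.71 to 0.78), and was above 0 in all 7 clusters, but at Untreated cluster shares the ratio was 0.56, just under 1.5-fold. Mgst2, which can conjugate leukotriene A4 with glutathione, had 25.1 CPM in AptCD4-LNT and 49.4 CPM in Untreated tumours (log2 −0.98, and −0.97 at those shares), and was below 0 in all 7 clusters. Pla2g7 had 92.4 and 74.9 CPM and Ptges3, the cytosolic prostaglandin E synthase, 365 and 423 CPM, both within 1.5-fold.

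In macrophage-like cells 5 of 27 list genes were higher and 2 lower (20.2% and 8.63% of all genes; median 0.03, all genes 0.21). Ltb4r1, the high-affinity leukotriene B4 receptor, had 13.6 CPM in AptCD4-LNT and 54.2 CPM in Untreated tumours, 4.00-fold lower, and at Untreated cluster shares its log2 ratio was −0.81 in place of −2.00. Hpgds, haematopoietic prostaglandin D synthase, had 104 and 44.9 CPM (log2 1.22, and 0.41 at Untreated cluster shares). Hpgds was higher in the Ms4a7 cluster, at 111 and 33.9 CPM on 457 and 12 UMIs (log2 1.71, 0.89 to 2.67). In the Mmp12 (−0.09), Bglap (0.44) and Ccl8 (0.38) clusters its interval includes 0. Ltc4s, leukotriene C4 synthase, had 61.8 and 32.1 CPM (0.95, and −0.23 at Untreated cluster shares). Akr1b3, an aldo-keto reductase, had 114 and 66.6 CPM (0.77, and 0.06 at those shares). Of the 4, only Ltb4r1 was past 1.5-fold at Untreated cluster shares, but its interval includes 0 in each of the 4 macrophage-like clusters, on 2 to 54 AptCD4-LNT UMIs (log2 −0.11 in the Ms4a7, −0.53 in the Mmp12, −1.12 in the Bglap and −1.92 in the Ccl8 cluster). Neutrophil markers, 10 of 10 detected in both libraries, summed to 417 CPM in AptCD4-LNT and 1180 CPM in Untreated macrophage-like cells, and their part in the Ltb4r1 result was not tested.

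In neutrophil-like cells 6 of 20 list genes were higher and 2 lower (27.5% and 7.91% of all genes; median 0.15, all genes 0.23). Fpr2, a receptor for formyl peptides and lipoxin, had 368 CPM in AptCD4-LNT and 180 CPM in Untreated tumours (log2 1.03, 0.88 to 1.18). Abcc1, an exporter of leukotriene C4, had 13.6 and 27.3 CPM (−1.01), Ggt5 28.7 and 15.4 CPM (0.90) and Ggt1 12.98 and 21.8 CPM (−0.75), the last 2 being glutamyl transferases. With these clusters at their Untreated shares the log2 ratios were 0.52 for Fpr2, −0.22 for Abcc1, 0.13 for Ggt5 and −1.82 for Ggt1. Only Ggt1 of these 4 was then past 1.5-fold. In the Ngp cluster all 4 were past 1.5-fold with intervals that exclude 0. Log2 ratios there were 0.93 for Fpr2, −0.95 for Abcc1, 0.78 for Ggt5 and −1.85 for Ggt1. In the Hcar2 cluster Fpr2 (0.20), Abcc1 (−0.05) and Ggt5 (−0.55) had intervals that include 0, and Ggt1 had 1 AptCD4-LNT and 12 Untreated UMIs. In monocyte-like cells 4 of 24 were higher and 6 lower (16.5% and 7.3% of all genes; median −0.04, all genes 0.11). Abcc1 (54.0 CPM in AptCD4-LNT and 29.99 in Untreated) and Abcc4 (24.4 and 14.8 CPM), an exporter of prostaglandins, were higher there, and Cyp4f18 (33.0 and 57.8 CPM), which inactivates leukotriene B4, and the dipeptidase Dpep2 (33.0 and 53.7 CPM) were lower.

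The smaller classes gave few list genes with an interval away from 0. In T/NK-like cells 3 of 13 were higher and 5 lower (18.3% and 11.9% of all genes; median 0.04, all genes 0.09), among them Ltb4r1 at 39.7 CPM in AptCD4-LNT and 18.7 CPM in Untreated tumours and Mgst3 at 27.6 and 51.9 CPM. In pericyte-like cells 3 of 10 were higher and 2 lower (18.8% and 14.3% of all genes; median −0.08, all genes 0.07), among them Ggt5 at 97.8 CPM in AptCD4-LNT and 42.5 CPM in Untreated tumours and Pla2g4a, the cytosolic phospholipase A2, at 9.31 and 32.4 CPM on 4 and 16 UMIs. In endothelial-like cells 1 of 10 was higher and 3 lower (9.86% and 11.5% of all genes; median −0.28, all genes 0.00), among them Slco2a1 at 86.5 CPM in AptCD4-LNT and 139 CPM in Untreated tumours and Mgst3 at 47.9 and 83.1 CPM. Ptges3 there had 315 and 400 CPM, within 1.5-fold.

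**Figure D5:**
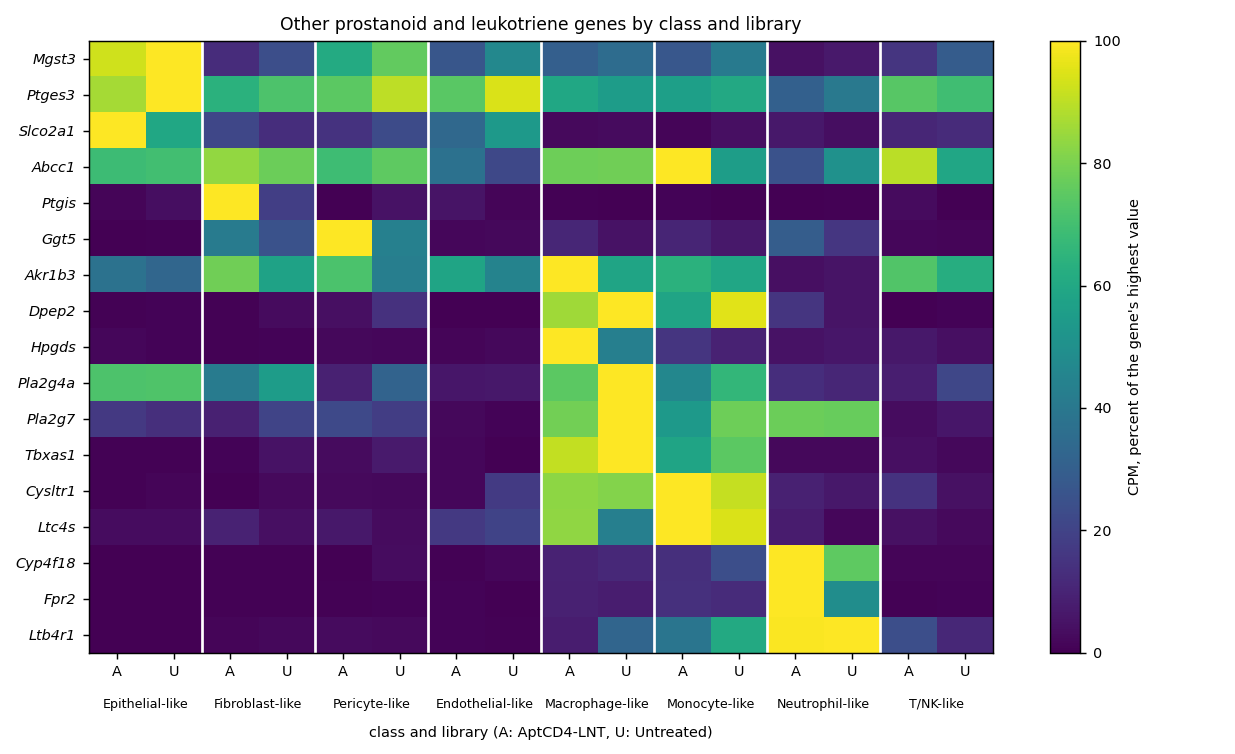
CPM of the 17 other pathway genes that reach 50 CPM in a compared class, in percent of each gene's highest value, by class and library, with AptCD4-LNT (A) left of Untreated (U). Ptgis is concentrated in AptCD4-LNT fibroblast-like cells, Fpr2, Ltb4r1 and Cyp4f18 peak in neutrophil-like cells and Tbxas1 and Hpgds in macrophage-like cells.

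The map of the list over classes shows where each step was most expressed. Macrophage-like cells had the highest levels of Pla2g4a (76.3 CPM in AptCD4-LNT and 102 in Untreated), of Tbxas1, thromboxane synthase (75.5 and 83.3 CPM), and of Pla2g7 (435 and 552 CPM). Monocyte-like cells had those of Cysltr1, a cysteinyl leukotriene receptor (95.02 and 86.9 CPM), and of Ltc4s (74.0 and 69.8 CPM), although the Ccl8 and Cd163 macrophage-like cluster had more Ltc4s, at 311 and 287 CPM. In AptCD4-LNT tumours Pla2g4a did not differ beyond its interval from epithelial-like cells (73.3 CPM), Pla2g7 from neutrophil-like cells (429 CPM) or Ltc4s from macrophage-like cells (61.8 CPM). The intervals of Cysltr1 overlapped with those of macrophage-like cells (78.9 and 77.2 CPM) in both libraries. Neutrophil-like cells had those of Ltb4r1, at 164 CPM in AptCD4-LNT and 165.5 CPM in Untreated tumours, and of Cyp4f18, at 242 and 182 CPM.

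The genes whose class profile most resembled each of the 8 were taken by Pearson correlation of log2(CPM + 1) over the 16 points of class and library, among 6606 genes. The points share libraries and classes, so these values are descriptions. Alox5ap was closest to C5ar1 (r = 0.987), and Ccr1 and Itgam came next. Ptges was closest to Steap2 (0.966), Tpbg and Ltbp1, Alox5 to Cnppd1 (0.962), Gm45221 and Cap1, and Ptger2 to Arhgap15 (0.947), Arhgap30 and Cd69. Hpgd was closest to Pappa (0.937), Slc1a3 and Ptx3, Ptgs2 to Cers6 (0.930), Soat1 and Cd44, Ptger4 to Cd83 (0.910), Slc7a8 and Havcr2, and Ptgs1 to Ctsl (0.817), Tor3a and Creb5.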

How the data were processed

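The deposited matrices hold counts, whole UMIs per gene and barcode, made by the authors with Cell Ranger 7.2.0 on GRCm39, per the submitters' processing notes. Whether counting used strand or introns is not given in the sources used here. No barcode has fewer than 500 UMIs.

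Barcodes under 200 genes or over 20% mitochondrial UMIs were dropped (78 AptCD4-LNT and 39 Untreated). Scrublet at its automatic threshold removed 226 (2.55%) and 1785 (8.92%) as doublets, where 7.14% and 16.0% were expected from barcode number. Counts were scaled to 10000 per cell and logged, and 2000 variable genes without the 8 genes and the pathway list, 30 components and 15 neighbours gave 22 Leiden clusters at resolution 1, with no integration (scanpy 1.11.5 and igraph 0.11.9 in Python 3.11.15; statistics with scipy 1.17.1, pandas 2.3.3 and numpy 2.4.6). A cluster took the class whose markers scored highest, if at least 3 stood at 20 CPM or more and no leading gene spoke against it. The unnamed cluster (120 AptCD4-LNT and 456 Untreated cells), osteoclast-like cells (24 and 29) and skeletal muscle-like cells (0 and 16) were not compared. The monocyte-like, T/NK-like and unnamed clusters were also sub-clustered.

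UMIs were summed per class and scaled to CPM. Intervals are exact 95% Poisson for levels and exact 95% binomial for ratios and shares (Clopper-Pearson), and a count of 0 is given the limit of 3 counts. With 1 library per group no p-value is possible, and 1.5-fold is the fixed rule of size. The ratio calculation was tested on simulated counts. Scaling to the total left the median gene at log2 0.21 in macrophage-like, 0.23 in neutrophil-like and 0.11 in monocyte-like cells. Named pathway genes are, per class, up to 4 with the largest log2 ratio whose interval excludes 0 and that reach 20 CPM, and those at 50 CPM for the map. Dpep2 has 2 rows in the gene table, of which the first was used. The 8 genes and all lists were chosen with earlier results of these data known.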

Additional observations from a re-analysis of the deposited data

How the results depend on the processing

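No paired analysis was possible because each group has 1 library. Of 460 alternative values over 50 log2 ratios, 375 stayed within their interval, 82 moved and 3 turned a difference past 1.5-fold to the other sign. These came with clusters at their Untreated shares, a setting chosen after seeing the data. They were Ptger2 in macrophage-like cells (0.34), Alox5 in macrophage-like cells (−0.82) and Ptger2 in neutrophil-like cells (−0.16). The setting gives no interval, and in macrophage-like cells it rests mostly on clusters with 43 and 61 AptCD4-LNT cells. Ratios within 1.5-fold changed sign more often, and under that setting these were Ptgs2 in macrophage-like (0.38), Ptgs1 and Alox5ap in neutrophil-like (−0.67 and −0.56) and Hpgd in fibroblast-like cells (−0.82). The count of 13 higher combinations ranged between 10 and 16. The count of 9 lower ones was 5 with at least 50 UMIs and 4 with cells thinned to 1000 UMIs, settings under which fewer combinations are compared, and 7 to 13 otherwise. Ratios that came within 1.5-fold under a setting not yet given were Ptger2 in monocyte-like cells (0.28 to 0.46 in 4 settings), Ptger2 in macrophage-like cells (−0.45 without doublet removal and −0.51 under stricter cell filters), Ptger2 in fibroblast-like cells (−0.33 at Untreated cluster shares) and Alox5 in monocyte-like cells (0.55 with the 8 genes left among the variable genes). The cause was not tested. Pericyte-like cells gave no value under expected-rate doublet removal, where fewer than 50 cells were left. Depth limits Ptger2, Hpgd and Alox5 most, which rest on 53 to 267 UMIs per library.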
